A study of Bos taurus with 3 samples.

Results

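Carbonic anhydrases are zinc enzymes that interconvert carbon dioxide and bicarbonate with the release or uptake of a proton. In the rumen they are known for supplying bicarbonate and protons to the exchangers of the epithelium, where short-chain fatty acids are taken up. CA2, CA3 and CA13 work in the cytosol, and CA3 is known for low catalytic activity and high abundance in skeletal muscle and fat. CA4 is tethered to the outer face of the plasma membrane, and CA12 spans the membrane with its catalytic part outside the cell.

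The members described here were the 5 genes CA2, CA3, CA4, CA12 and CA13, of 15 carbonic anhydrase genes found by symbol and 27270 genes in all. They were chosen by symbol with their levels in these libraries already known, and CA3 also for its difference between the calves, so those values are a description and carry no test. Single-cell suspensions were made from the rumen of 3 newborn Holstein calves, taken 1 day after birth, and each calf gave 1 droplet library. The outer muscle was stripped off and the tissue was digested with trypsin and then collagenases, dispase and hyaluronidase. All 3 calves belong to a single untreated group, and adult tissue was not analysed here. Calves 1, 2 and 3 gave 4545, 9642 and 9481 cells with medians of 10381, 6504 and 7452 unique molecular identifiers (UMIs, counts of captured RNA molecules). Pairs of calves shared between 10 and 28 cell barcodes among these cells. Calf 1 had the deepest cells but only 21 fibroblasts and 10 immune cells, and 725 of the 779 immune cells came from calf 3.

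Marker genes gave 20794 epithelial, 1279 endothelial, 815 fibroblast and mural, and 779 immune cells. Epithelial cells were then split into 13 states with all carbonic anhydrase genes left out of the clustering. A state was named only where its marker list led it, and the others are called here by their leading genes. The level of a gene is its UMIs per 10000 UMIs after the cells of a class or state were summed within each calf. Its interval is the exact 95% Poisson interval. Shares of cells with a UMI are for cells thinned to 2000 UMIs, with exact 95% binomial intervals. Both intervals cover counting error only, and a class or state with fewer than 20 cells in a calf was not compared there.

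CA3 was a transcript of the epithelium in all 3 calves. The epithelial CA3 level of calves 1, 2 and 3 was 11.7 (11.6 to 11.8), 8.98 (8.91 to 9.06) and 3.40 (3.36 to 3.45), or 8.02 ± 4.22 UMIs per 10000 (SD, n = 3 calves). This placed CA3 at position 149 by mean epithelial level among the 12638 genes with at least 100 UMIs. After thinning, 66.7% (65.3 to 68.1), 62.6% (61.6 to 63.6) and 39.0% (37.9 to 40.2) of the epithelial cells of calves 1, 2 and 3 had a CA3 UMI. Without thinning these shares were 88.3%, 80.9% and 70.6%, at median depths of 10501, 6714 and 7938.5 UMIs.

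Outside the epithelium CA3 was lower in every class of each calf. Its endothelial level was 1.75 in calf 1, 0.548 in calf 2 and 0.0756 in calf 3. Its fibroblast level was 2.65, 1.76 and 0.747 in calves 1, 2 and 3, the first of these from 20 UMIs. In both classes the calves stood in the same order as in the epithelium, and no class reached the epithelial level of its own calf. A CA3 UMI was found in 14.1%, 7.60% and 1.99% of the thinned endothelial cells of calves 1, 2 and 3, a cell type at a median depth of 4014 UMIs against 7731.5 in the epithelium.

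These endothelial CA3 reads were set against 5 epithelial transcripts, the keratins KRT5, KRT14 and KRT15 and the genes S100A2 and PERP. For each 1000 UMIs of these 5 genes, epithelial cells held 53.1, 36.5 and 17.4 CA3 UMIs in calves 1, 2 and 3. Endothelial cells held 52.6, 38.2 and 12.3, and barcodes under 500 genes held 49.3, 22.0 and 11.5. Endothelial cells thus lay near the epithelial ratio of the same calf in calves 1 and 2 and below it in calf 3, and the part of free epithelial RNA in the endothelial CA3 counts was not tested. In fibroblasts the ratio was 22.6 (20 CA3 UMIs), 47.7 (150 UMIs) and 22.3 (88 UMIs). This was below the epithelial ratio in calf 1 and above it in calves 2 and 3.

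**Figure D1:**
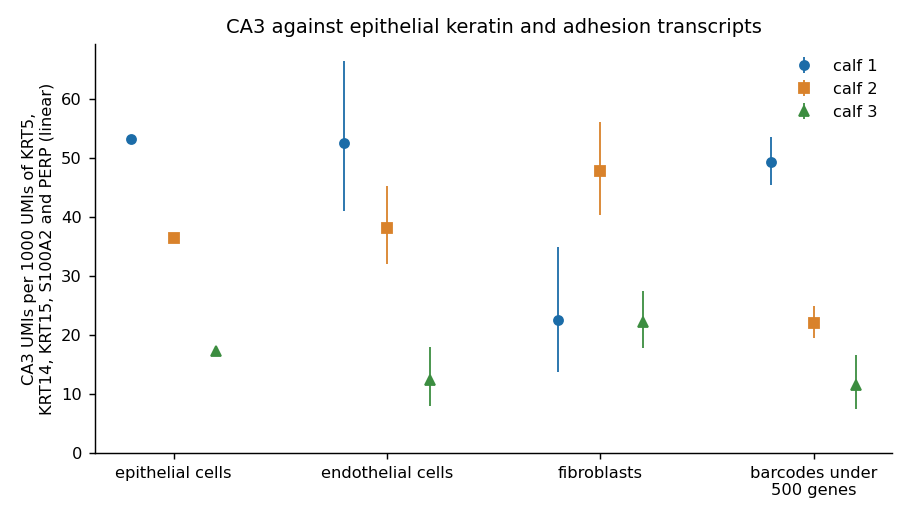
CA3 UMIs per 1000 UMIs of 5 epithelial transcripts on a linear axis, in epithelial cells, endothelial cells, fibroblasts and barcodes under 500 genes. Immune cells are not drawn. Points are calves 1 to 3 and bars are exact 95% Poisson intervals of the CA3 count. In endothelial cells the points sit at 52.6, 38.2 and 12.3, beside 53.1, 36.5 and 17.4 in epithelial cells.

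In immune cells CA3 rested on 1 cluster. The immune level was 4.17 in calf 2 (84 UMIs) and 0.286 in calf 3 (112 UMIs). A cluster of 44 immune cells was led by the epithelial genes COL17A1, PERP, KRT15 and DSP as well as by CA3, and held 81 of those 84 UMIs and 85 of those 112. Without that cluster, an alternative chosen after the data were seen, the immune level was 0.297 in calf 2 and 0.0760 in calf 3.

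CA12 was found almost only in epithelial cells. The epithelial CA12 level of calves 1, 2 and 3 was 0.204 (0.191 to 0.216), 0.0473 (0.0423 to 0.0528) and 0.127 (0.119 to 0.136). Of its 2215 UMIs in kept cells, 2208 were epithelial, 6 were immune, 1 was in a fibroblast and 0 were in the 1279 endothelial cells. Epithelial cells also held most UMIs of all genes. These were 50095699 of 50626608 in calf 1, 67218857 of 70705207 in calf 2 and 68271832 of 76800183 in calf 3. A count of 3 UMIs was taken as the limit that a count of 0 allows. In endothelial cells this limit stood at 0.0740, 0.0124 and 0.00872 UMIs per 10000 in calves 1, 2 and 3. Each value lies below the epithelial level of the same calf. In the 21 fibroblasts of calf 1, with 0 CA12 UMIs, the limit was 0.398, above the epithelial 0.204. After thinning, 3.86% (3.30 to 4.47), 0.764% (0.590 to 0.973) and 1.86% (1.57 to 2.19) of epithelial cells had a CA12 UMI, and without thinning 18.5%, 3.40% and 9.12%.

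CA13 was the member that differed least between the calves. Its epithelial level was 0.361 (0.345 to 0.378), 0.364 (0.350 to 0.379) and 0.331 (0.318 to 0.345) in calves 1, 2 and 3, or 0.352 ± 0.0181 (SD, n = 3). A CA13 UMI was found in 7.39%, 7.27% and 6.44% of thinned epithelial cells. Endothelial cells held 2, 5 and 2 CA13 UMIs, a level between 0.00581 and 0.0493. The fibroblast level of 0.530 in calf 1 lay above that of the epithelium but came from 4 UMIs in 21 cells, with an interval of 0.145 to 1.36. In calves 2 and 3 the fibroblast level was 0.0586 and 0.0849, below the epithelium.

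CA2 was sparse in the epithelium and higher in fibroblasts and immune cells. The epithelial CA2 level of calves 1, 2 and 3 was 0.0228 (0.0188 to 0.0273), 0.0360 (0.0316 to 0.0408) and 0.00395 (0.00261 to 0.00575). Its fibroblast level was 0.398 (3 UMIs), 0.269 (23 UMIs) and 0.161 (19 UMIs), and its immune level was 0.248 in calf 2 and 0.289 in calf 3. In these calves the intervals of the fibroblast and immune levels overlapped, 0.171 to 0.404 against 0.0806 to 0.579 in calf 2 and 0.0971 to 0.252 against 0.238 to 0.347 in calf 3. Such overlap does not show that 2 levels are alike. The levels of the 2 classes were close in calf 2, at 0.269 and 0.248, and the immune level was the higher in calf 3.

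Within immune cells of calf 3, CA2 lay mainly in dendritic-like cells, a cluster that carried FLT3, CST3, BOLA-DRA, FCER1A and CD1E. The 275 dendritic-like cells of calf 3 held 84 CA2 UMIs, a level of 0.441 (0.351 to 0.545), and 25.1% of them had a CA2 UMI before thinning and 7.87% (4.93 to 11.8) after. A cluster led by APOE and the complement genes C1QA, C1QB and C1QC held 19 CA2 UMIs in 90 cells of calf 3, a level of 0.393 (0.237 to 0.614). The 269 T-like cells of calf 3 held 2 CA2 UMIs, a level of 0.0234 (0.00283 to 0.0846). Calves 1 and 2 held 1 and 0 dendritic-like cells, so this pattern was seen in 1 calf.

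CA4 was found mainly in fibroblast and mural cells. These held 75 of its 81 UMIs, 2 in calf 1, 35 in calf 2 and 38 in calf 3, at levels of 0.265 (0.0321 to 0.958), 0.410 (0.286 to 0.570) and 0.323 (0.228 to 0.443). Epithelial cells held 3 UMIs, all in calf 2, and in calf 3 endothelial cells held 1 and immune cells 2. Mural cells, which carry the contractile genes ACTA2, TAGLN and MYL9, held 19 CA4 UMIs in calf 2 and 35 in calf 3. The other fibroblasts held 16 in calf 2 and 3 in calf 3, so that the level in mural cells was 0.373 against 0.465 in calf 2 and 0.457 against 0.0730 in calf 3. In calf 2 the intervals overlapped, 0.224 to 0.582 against 0.266 to 0.756. In calf 3 they lay apart, 0.318 to 0.635 against 0.0151 to 0.213. A higher level in mural cells was thus seen in calf 3 only.

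**Figure D2:**
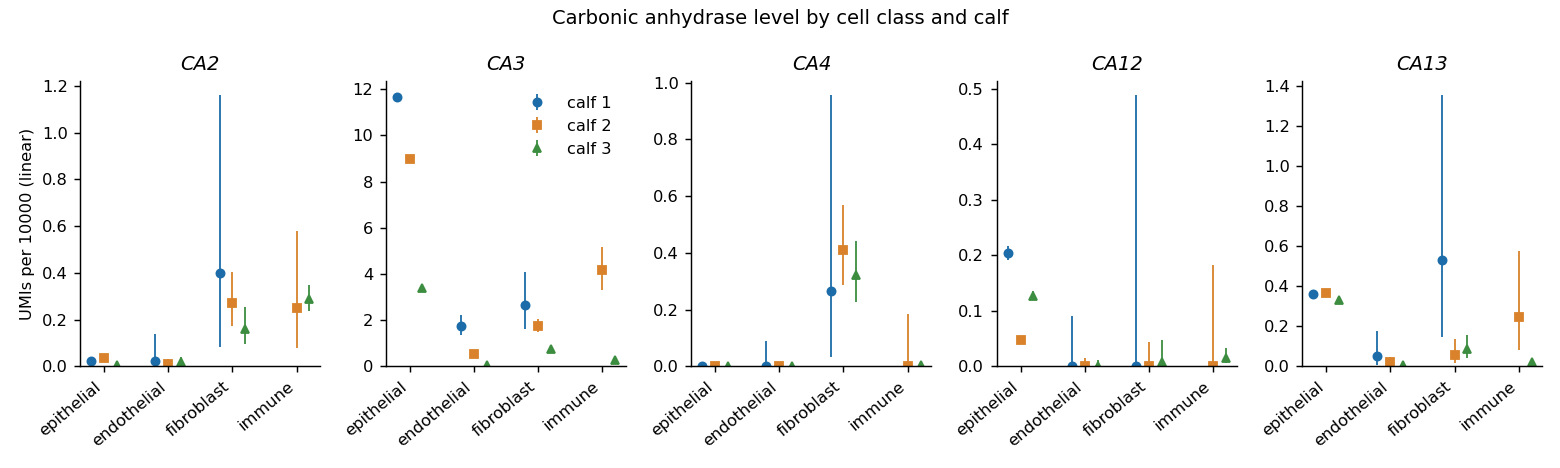
Level of each carbonic anhydrase in UMIs per 10000 by cell class, on linear axes with a scale of its own for each gene; points are calves 1 to 3, bars are exact 95% Poisson intervals, and the 10 immune cells of calf 1 are left out. The points of CA3 and CA12 are highest in epithelial cells in every calf, and those of CA4 in fibroblasts, at 0.265 to 0.410. For CA12 the fibroblast interval of calf 1, from 0 UMIs, reaches above the epithelial point.

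Over all genes with at least 100 UMIs, 9.15% were higher in epithelial cells than in every other class in each calf. Of the members, 4 had enough UMIs for this count, CA4 with 81 did not, and CA3 and CA12 were higher in epithelial cells in each calf. For CA12 in calf 1 the fibroblast side was 0 UMIs in 21 cells, too few to show a lower level. CA13 missed through the 4 UMIs in fibroblasts of calf 1. Because levels by class were known when the members were chosen, the count of 2 of 4 is given beside the 9.15% as a description only.

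CA3 differed between the calves in most epithelial states. The level over all epithelial cells in calf 1 was 3.43 times (counting interval 3.38 to 3.48) that in calf 3. With 0.05 added to all levels, 1.08% of the 12638 genes had a larger ratio of the highest to the lowest calf than CA3, and so had 5.63% of the 142 genes within 2-fold of its mean level. A difference past 2-fold (with 0.05 added to both levels) separated calf 1 from calf 3 for 2.74% of genes, calf 2 from calf 3 for 3.27% and calf 1 from calf 2 for 3.43%. CA3 was past 2-fold in both pairs with calf 3, CA12 in the pair of calves 1 and 2, and CA13 in none. CA2 could not pass 2-fold in this count, because its epithelial level in each calf was below the 0.05 added. Its ratio with nothing added was 9.10. A level in calf 3 past 2-fold below both other calves was found for 0.506% of genes, and CA3 was among them.

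The difference in CA3 ran through most cells rather than a few. The median epithelial cell held 7.64, 5.92 and 1.85 CA3 UMIs per 10000 in calves 1, 2 and 3, and the cell at the 90th percentile held 31.6, 26.0 and 9.01. At least 5 CA3 UMIs were found in 19.9%, 15.1% and 1.47% of thinned epithelial cells. With each epithelial state given the same weight, the CA3 level was 12.5, 7.42 and 3.13 in calves 1, 2 and 3. The 5 epithelial reference transcripts named above summed to 220, 246 and 196 UMIs per 10000 in calves 1, 2 and 3. Calf 3 was lowest, as for CA3, and calf 2 rather than calf 1 was highest.

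Other measures moved with the calves beside CA3. A list of 8 immediate-early genes, which respond to dissociation, summed to 39.8, 62.7 and 83.5 UMIs per 10000 in the epithelial cells of calves 1, 2 and 3, the reverse of the order of CA3. Its part in the CA3 difference was not tested. Of 6 muscle genes none was at 0, and they summed to 0.0505, 0.0409 and 0.0259, with CKM highest at 0.0373, 0.0207 and 0.0117. The fat genes ADIPOQ and LEP were at 0 in the epithelial cells of all 3 calves, and the 5 genes of that list summed to 0.364, 0.0986 and 0.773, nearly all of it FABP4. For CA2, which red blood cells also carry, the 6 erythroid genes summed to 0.00858, 0.0394 and 0.0249, with ALAS2 and SLC4A1 at 0 in each calf.

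CA12 and CA2 differed between the calves in other orders. The CA12 level in calf 1 was 4.30 times (3.79 to 4.90) that in calf 2, which was lowest in 11 of the 12 compared states. The CA2 level in calf 2 was 9.10 times (6.10 to 14.1) that in calf 3, which came from 27 UMIs. For CA13 the ratio of the highest to the lowest calf was 1.10 (1.04 to 1.16). With 0.05 added to all levels, 17.7% of the 12638 genes had a larger ratio than CA2, 2.68% than CA12 and 85.3% than CA13. Among genes within 2-fold of the mean level of each member, these shares were 6.13%, 3.71% and 95.2%.

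CA3 varied between the epithelial states. It was highest in a state of 3076 cells led by RGS4, KRT8 and PLAC8, at 25.5, 16.0 and 5.30 UMIs per 10000 in calves 1, 2 and 3. A state of 1841 cells also led by RGS4 and PLAC8 had 20.8, 15.6 and 5.08. The chemokine-high state, led by GRO1, CXCL2 and CXCL3, had 22.4, 12.8 and 3.08, and a state led by PPM1N, WNT11 and GADD45G had 16.0, 11.4 and 2.58. The state led by RGS4 and KRT8 came first in each calf, but the order of the states after it was not shared by the calves. By the mean over calves, neighbouring states differed by less than the SD over calves except at 1 step, from 5.65 ± 2.68 in the mitotic-like state to 1.63 ± 0.734 in the state marked by FABP4 and CYP26A1.

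CA3 was lowest in the spinous-like state and in a state marked by FABP4 and CYP26A1. The spinous-like state, led by SPINK5, A2ML1 and KRTDAP, had 1.31, 1.34 and 1.87 in calves 1, 2 and 3. A state of 485 cells with the fatty acid binding protein FABP4 and the retinoic acid hydroxylase CYP26A1 among its leading genes had 1.94, 0.797 and 2.17. In calves 1 and 3 these 2 states held the lowest levels, and in calf 2 a shallow state of 156 cells lay between them at 1.08. In them the calf order of the whole epithelium was lost, with calf 3 highest.

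**Figure D3:**
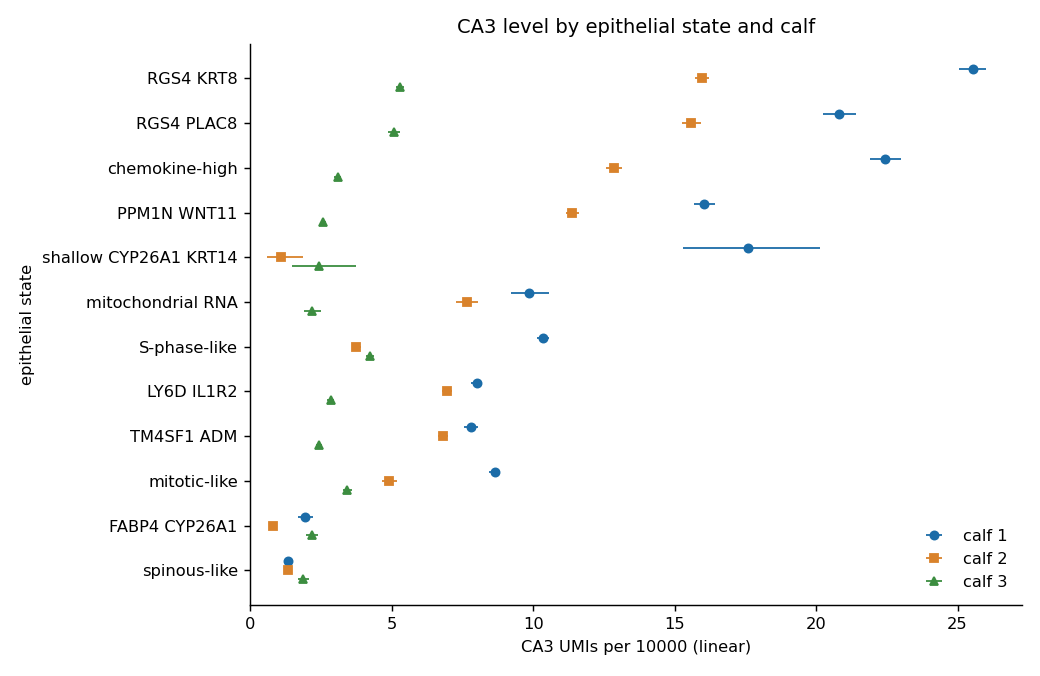
CA3 level in UMIs per 10000 on a linear axis in 12 epithelial states, in order of the mean over calves; points are calves 1 to 3 and bars are exact 95% Poisson intervals. The calves stand far apart in the state led by RGS4 and KRT8, at 25.5, 16.0 and 5.30, and close together in the spinous-like state, at 1.31, 1.34 and 1.87.

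The order calf 1, then 2, then 3 was found for CA3 in 8 of 12 states. In the S-phase-like state CA3 was 10.4, 3.74 and 4.23, and in the mitotic-like state 8.63, 4.90 and 3.43. The mitotic-like level was 0.698, 0.535 and 1.01 times that of the other epithelial cells of calves 1, 2 and 3. The spinous-like level was 0.106, 0.140 and 0.541 times that of the others, lower in 3 of 3 calves.

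CA12 had another pattern over the same states. It was highest in the state marked by FABP4 and CYP26A1 in each calf, at 0.478 (50 UMIs), 0.150 (46 UMIs) and 0.616 (124 UMIs). In the state led by RGS4 and KRT8, where CA3 was highest, CA12 was 0.0925, 0.0196 and 0.0299, the lowest of the 12 states in calves 2 and 3 and the lowest but 1 in calf 1. In the mitotic-like state CA12 was 0.230, 0.0936 and 0.292, and in the S-phase-like state 0.229, 0.0781 and 0.196. Thus CA12 lay highest where CA3 was near its lowest, and the reverse.

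CA13 lay in a narrower band. It was 0.559, 0.481 and 0.420 in the state led by PPM1N and WNT11, and 0.169, 0.209 and 0.125 in the spinous-like state, which was lower than the other epithelial cells in 3 of 3 calves. In the mitotic-like state it was 0.253, 0.281 and 0.137, also lower than the others in 3 of 3 calves. CA2 in calf 2 was 0.235 (72 UMIs) in the state marked by FABP4 and CYP26A1 and 0.112 (53 UMIs) in the spinous-like state. The same states held 2 and 1 CA2 UMIs in calf 1 and 1 and 2 in calf 3, so the higher CA2 was seen in 1 calf only. The highest CA2 level of calf 2, 0.999 (0.516 to 1.75), was in a shallow state of 156 cells and came from 12 UMIs in 55 cells, and this state held 0 CA2 UMIs in the other calves.

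**Figure D4:**
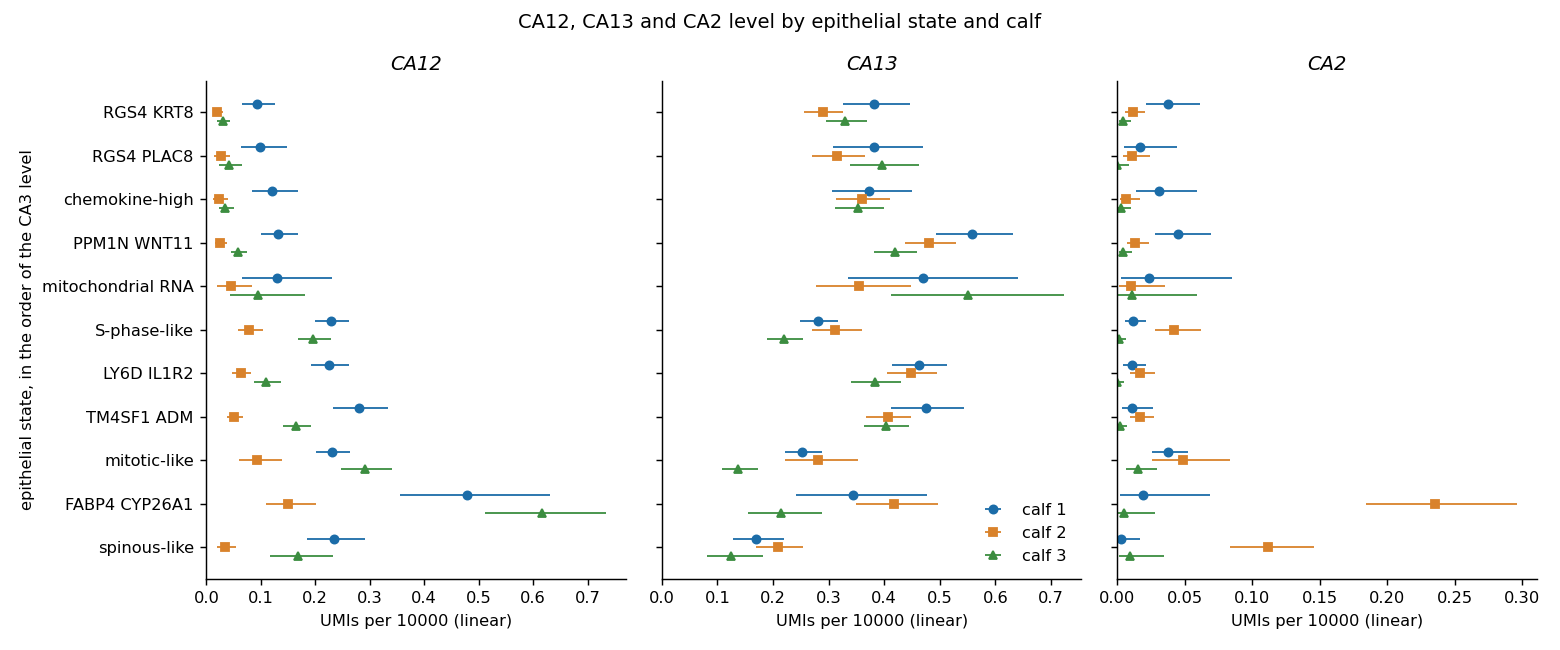
Level of CA12, CA13 and CA2 in UMIs per 10000 on linear axes in 11 epithelial states, listed in the order of the CA3 level, without the shallow state of 156 cells; points are calves 1 to 3 and bars are exact 95% Poisson intervals. CA12 is highest in the state marked by FABP4 and CYP26A1, at 0.478, 0.150 and 0.616, and CA2 in calf 2 is 0.235 there, below the 0.999 of the shallow state that is not drawn.

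Over all tested genes, 0.404% were past 2-fold above and 0.673% past 2-fold below the other epithelial cells in the state marked by FABP4 and CYP26A1 in 3 of 3 calves. CA12 was the only one of the 4 tested members above, and none was below. In the spinous-like state 1.53% of genes were past 2-fold above and 1.7% below in 3 of 3 calves, and in the mitotic-like state 2.07% above and 0.174% below. None of the 4 members was in these counts. In all of these states, that marked by FABP4 and CYP26A1 included, CA12 and CA2 could not be called below. In the other cells CA12 was at 0.0424 to 0.0483 in calf 2 and CA2 at 0.00302 to 0.00392 in calf 3, under the 0.05 added. The calls below thus cover CA3 and CA13 only. For CA3 in the spinous-like state, calf 3 at 1.87 against 3.45 in the other cells was the calf that did not pass.

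The members were also counted cell by cell after thinning to 2000 UMIs. Exactly 1 member was found in 63.2%, 60.8% and 41.5% of thinned epithelial cells of calves 1, 2 and 3, 2 members in 7.34%, 5.09% and 2.88%, and 3 members in 0.162%, 0.0353% and 0.0266%. CA3 and CA12 were found together in 88, 32 and 44 cells, against 111, 40.7 and 54.7 from the product of their shares. CA3 and CA13 were found together in 227, 391 and 173 cells, against 213, 387 and 189.

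The genes most like each member were sought over 45 sums of a calf and a class or state, which share libraries and depth. For CA3 these were KRT7, STARD10 and EDARADD, with Pearson's r of 0.888, 0.882 and 0.864 on log2 levels. For CA12 they were CISD3 and ACOT2 at 0.898 and 0.892, followed by an unnamed gene at 0.884. For CA13 they were ARHGEF16, COL17A1 and KRT15 at 0.918, 0.917 and 0.908, and for CA2 SLC17A9, TLR5 and ARHGEF6 at 0.835, 0.721 and 0.714. Among the members themselves CA3 and CA13 had r = 0.707 and CA3 and CA12 had r = 0.177. Over 37 epithelial state sums alone, with levels centred within each calf, r was 0.334 for CA3 and CA13 and -0.534 for CA3 and CA12, so the sign for CA3 and CA12 turned. There the genes most like CA3 were PRR15, FBXO15 and BASP1, at 0.909, 0.891 and 0.877. CA4 had too few UMIs for these comparisons.

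In the RefSeq annotation of the assembly ARS-UCD2.0, CA2, CA3 and CA1 are consecutive genes on chromosome 14, and CA13 follows CA1 with 2 genes between. CA12 lies on chromosome 10 and CA4 on chromosome 19. CA1, a cytosolic enzyme known from red cells and gut epithelium, is no member and was picked out after its values were seen. Its epithelial level was 0.0285, 0.0251 and 0.373 in calves 1, 2 and 3, so that it was highest in the calf in which CA3 was lowest. Because the strand and multi-mapping settings of the counting were not given, reads shared between these neighbouring, related genes could not be checked. In calf 3 CA1 was highest in the state marked by FABP4 and CYP26A1, at 1.16, and lowest in that led by RGS4 and KRT8, at 0.0536. The 6 erythroid genes summed to 0.0249 in the epithelial cells of calf 3.

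**Figure D5:**
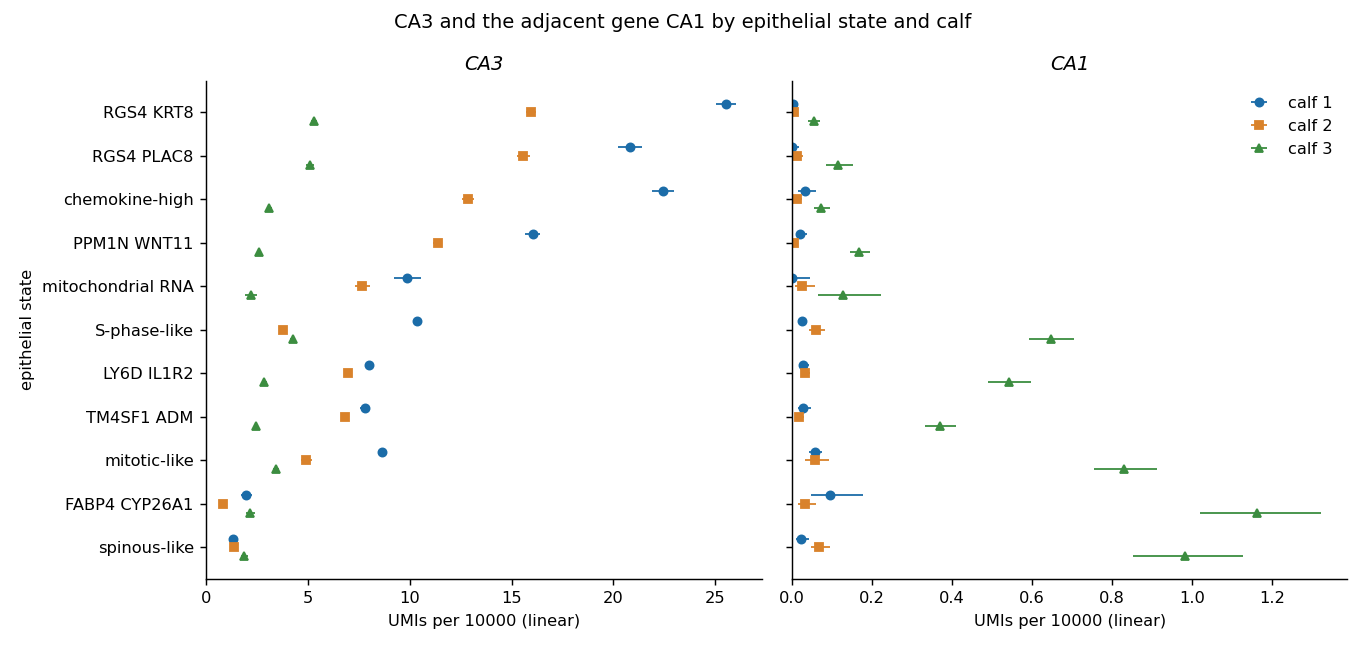
CA3 and CA1 levels in UMIs per 10000 on linear axes of different scale in 11 epithelial states, listed in the order of the CA3 level; points are calves 1 to 3 and bars are exact 95% Poisson intervals. CA1 in calf 3 runs from 0.0536 in the state led by RGS4 and KRT8 to 1.16 in that marked by FABP4 and CYP26A1, while calves 1 and 2 stay at or under 0.0956.

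A list of 31 transporters and exchangers that handle bicarbonate, protons, short-chain fatty acids, water or ammonia was read beside the members. This list was chosen with earlier results of these data known, so its counts stand beside the shares of all tested genes as a description only. Of these 31 genes, 18 had at least 100 UMIs, and 9 of the 18 were highest in epithelial cells in each calf, against 9.15% of all tested genes. The highest epithelial levels were those of BSG, the partner protein of monocarboxylate carriers, at 8.62 ± 0.882 (SD, n = 3), the water and glycerol channel AQP3 at 7.58 ± 5.41 and the monocarboxylate carrier SLC16A1 at 2.61 ± 1.44. They were followed by the sodium-proton exchanger SLC9A3 at 0.798 ± 0.413, its scaffold SLC9A3R1 at 0.383 ± 0.146 and the sodium bicarbonate cotransporter SLC4A7 at 0.220 ± 0.0675. SLC9A3R1 and SLC4A7 were higher in immune cells, at 0.615 and 1.28 as means over calves 2 and 3. Calf 1, with 10 immune cells, was not compared in that class, and calf 2 had 44. SLC9A3R1 and SLC4A7 were among 4 of the 18 that were highest in immune cells, against 11.8% of all tested genes. AQP3 was 13.3, 6.88 and 2.55 in calves 1, 2 and 3, the order found for CA3. In the state marked by FABP4 and CYP26A1, where CA12 was highest, 3 of the 18 (SLC4A7, SLC26A2 and SLC16A1) were past 2-fold above the other epithelial cells in 3 of 3 calves, against 0.404% of all tested genes. In the spinous-like state 2 of the 18, SLC9A2 and SLC9A3R1, were above, against 1.53%. In the state led by RGS4 and KRT8, where CA3 was highest, SLC26A2 and SLC16A1 were past 2-fold below, against 0.981%, and in the chemokine-high state SLC26A2 was below, against 0.728%.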

How the data were processed

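The authors deposited, for each of the 3 calves, unnormalized UMI counts for each gene in each barcode. Cell Ranger 3.1.0 (submitters' processing notes) made these counts from Chromium 3′ v3 libraries on the cattle genome ARS-UCD1.2. The annotation version and the strand setting are not given in the sources used here. Total counts were 82263092, 89803289 and 106145091 in calves 1, 2 and 3. Kept barcodes had 500 to 4000 genes, no more than 50000 UMIs and a mitochondrial share of up to 40%, and 178, 887 and 854 doublets found by a score against simulated doublets were removed. Counts were log-normalized, 2000 variable genes were reduced to 30 dimensions (classes, resolution 0.1) or 50 (epithelial states, resolution 0.8), calves were merged by an own implementation of Harmony, and cells were grouped with leidenalg 0.10.2. A class was named where at least 3 markers of a list were over 1.5-fold. A state also needed a marker of its list among its 10 leading genes. Of the 13 states, 1 of 42 cells had stromal leading genes and 2 were shallow, with medians of 3279 UMIs (929 cells) and 1644 UMIs (156 cells).

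Levels were computed from summed counts. Genes with at least 100 UMIs in kept cells counted as tested in every background share, and 2-fold was reached on levels with 0.05 added. With 1 group and 1 library per calf no hypothesis test was run, and SDs are over 3 calves, whose labels give separate animals by number. The members, marker lists and transporter list were chosen with earlier results of these data known. Genes named were the members, the other carbonic anhydrases with at least 100 UMIs, the 6 transporters with the highest epithelial level, and the 3 genes most like each member. CA1 was picked out, and CA6, CA7, CA10, CA14, SLC26A2 and SLC9A2 were named, after their values were seen. Alternatives varied doublet removal, mitochondrial limit, upper limits, thinning, clustering and calves. The 2-fold call, the thinning, the Poisson and binomial intervals and the clustering were tested on simulated data. The doublet score, the naming of clusters and the intervals of ratios were not. Python 3.11.15, NumPy 2.4.6 and SciPy 1.17.1 were used.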

Additional observations from a re-analysis of the deposited data

Results flagged for a closer look

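Barcodes with over 4000 genes entered no comparison. In these 1621 barcodes, pooled over calves, CA3 was at 5.77 UMIs per 10000 (28789 UMIs), CA12 at 0.241 (1204 UMIs), CA13 at 0.222 (1108 UMIs) and CA2 at 0.0353 (176 UMIs), each above the limit of 3 UMIs. CA3 there was 8.28, 4.53 and 2.66 in calves 1, 2 and 3, in the order of the kept epithelial cells, and CA12 was 0.264, 0.114 and 0.251, again lowest in calf 2. CA4 had 0, 0 and 2 UMIs. Groups of 3 calves are too small for a search for single outlying samples.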

How the results depend on the processing

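Of 128 alternatives that took out no calf by design, 107 left a value the same and 21 moved it. A mean counted as the same within its SD over calves, and a ratio of calves within its counting interval. A class of the highest level counted as the same while it stayed highest. Directions turned for the order of fibroblasts and immune cells in CA2 and for CA12 in the spinous-like state, where the calves shared no direction. The CA12 ratios there were 1.16, 0.698 and 1.33 in calves 1, 2 and 3. Their mean of 1.06 was 0.875 without Harmony. With a gate on KRTDAP the mean was 0.887, but over calves 1 and 2 alone, so it cannot be compared with the mean of 3 calves. CA3 stayed epithelial and lower in the spinous-like state under each alternative run. Without thinning the mean shares of positive epithelial cells were 1.52% for CA2, 79.9% for CA3, 10.3% for CA12 and 26.3% for CA13. With at least 2 UMIs they were 0.0157%, 35.6%, 0.0480% and 0.320%, and CA13 thinned to 1000 UMIs gave 3.57%. The CA13 epithelial level was 0.330 with no upper limit on genes or UMIs and 0.371 as a mean over cells. The ratio of the spinous-like state to the other cells, 1.06 for CA12 and 0.458 for CA13, was 2.45 and 0.646 with doublets kept and 2.36 and 0.587 at resolution 1.2, where more clusters took the name. A gate on KRTDAP held 8 cells in calf 3, which was left out of that alternative. The ratio of calves was 3.50 for CA3 with doublets kept, and with equal weights for states 27.8 for CA2, 4.00 for CA3, 3.38 for CA12 and 1.23 for CA13. For CA2 these weights count the shallow state of calf 2, at 0.999 from 12 UMIs in 55 cells, as much as any other state. Leaving out a calf, the ratio of calves ranged from 1.58 to 9.10 for CA2 and from 1.30 (without calf 3) to 3.43 for CA3. For CA12 it ranged from 1.60 (without calf 2) to 4.30 and for CA13 from 1.01 to 1.10. The mean CA2 level of fibroblasts (3 calves) less that of immune cells (calves 2 and 3), 0.00767, was -0.0702 with no upper limits and ranged from -0.0531 (without calf 1) to 0.0855 (without calf 3). The cause of these shifts was not tested. No paired analysis was possible because the samples form 1 group. Few UMIs limit CA4 and CA2, and few cells limit fibroblasts and immune cells in calf 1.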

Other observations

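The remaining carbonic anhydrase genes with at least 100 UMIs were CA8, CA5B, CA11, CA9 and CA5A. CA8, a cytosolic family protein without the usual catalytic activity, had epithelial levels of 0.179, 0.156 and 0.119 UMIs per 10000 in calves 1, 2 and 3, and was 0.446, 0.399 and 0.242 in the state led by RGS4 and KRT8 against 0.0287, 0.00653 and 0.00497 in that marked by FABP4 and CYP26A1. CA8 was also found in endothelial cells, at 0.148, 0.239 and 0.160. The mitochondrial enzyme CA5B was at 0.117, 0.159 and 0.0986 in epithelial cells and at 0.0297, 0.0337 and 0.0431 in the spinous-like state. CA11 was at 0.105, 0.0427 and 0.0543 and the membrane enzyme CA9 at 0.0337, 0.0370 and 0.0511 in epithelial cells. CA5A, mitochondrial like CA5B, was at 0.0357, 0.00878 and 0.00820. CA6, CA7, CA10 and CA14 had 0, 3, 4 and 35 UMIs in kept cells.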
